A study of Homo sapiens with 6 samples.

Results

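The OMA1-DELE1 relay and the eIF2alpha kinases are taken here as 7 genes chosen by name: the mitochondrial protease OMA1, its substrate DELE1, the 4 kinases EIF2AK1 (HRI), EIF2AK2 (PKR), EIF2AK3 (PERK) and EIF2AK4 (GCN2), and EIF2S1, which encodes the kinases' shared target eIF2alpha. All 7 were found among the 67051 gene identifiers of the count tables, and 6 of them are among the 23133 genes that passed the filter on low counts. OMA1 did not pass, with 0 counts in every library. The cells were SH-SY5Y, an established human neuroblastoma line with adrenergic features that is used as a model of dopaminergic neurons, and the nascent RNA of isolated nuclei was read by PRO-seq, a run-on method in which engaged RNA polymerases add a few labelled bases before the RNA is sequenced. Of the 3 groups of 2 libraries, 1 was untreated and the others received MPP+, the toxic metabolite of MPTP and an inhibitor of mitochondrial complex I, at 0.1 mM over 0.5 h or 24 h. All groups were the same line in the same high-glucose medium, and the labels name no vehicle and no untreated group harvested at each time. Whether the 2 libraries of a group are separate cultures is not stated, and the spread that p-values rest on here, that between libraries, may be technical.

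The relay links a failing mitochondrion to protein synthesis in the cytosol. OMA1, a zinc protease of the inner mitochondrial membrane, is activated by loss of membrane potential and cleaves DELE1, whose released fragment gathers in the cytosol and binds and activates the kinase HRI. HRI and the other kinases, each answering to a different stress, phosphorylate eIF2alpha, which slows general translation and favours translation of the transcription factor ATF4, a program called the integrated stress response. Each of these steps acts on existing protein, whereas PRO-seq reads polymerase engaged on the genes. The values below are counts of such reads per gene, which do not tell where along a gene the polymerase was. They hold no measure of cleavage, kinase activity or phosphorylation.

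The stretch of EIF2S1 around the codon on which the 4 kinases converge is shown because it is their common substrate site. It lies at chr14:67364903-67364941 (GRCh38, plus strand, exon 2 of 8 of the GENCODE 29 transcript), and the capitals mark the codon of serine 51, counted without the initiator methionine.
EIF2S1 codons around serine 51: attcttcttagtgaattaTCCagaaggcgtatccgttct

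Promoters were taken from RefSeq (GRCh38.p14), 250 bases before to 50 bases after each start, and 6 of the 7 genes matched (EIF2AK1 did not). Windows of 30 bases around 1 match each are given for the 4 genes whose promoters held a match to a motif searched. The match is in capitals, read 5′ to 3′ on the gene's strand, and DELE1 and EIF2AK3 are shown for the same motif. For EIF2AK2, the interferon-inducible kinase, the match is the core of the interferon-stimulated response element, GAAANNGAA, at chr2:37156967-37156996 (minus strand). For EIF2S1 it is the core of the NRF1 site, GCGCATGCG, bound by an activator of genes of the respiratory chain, and the first of 2 matches lies at chr14:67360297-67360326 (plus strand). For DELE1 it is a CCAAT box read on the other strand, as ATTGG, at chr5:141923804-141923833 (plus strand), and for EIF2AK3 it is 1 of 4 CCAAT boxes, at chr2:88627500-88627529 (minus strand).
EIF2AK2: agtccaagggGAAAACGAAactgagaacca
EIF2S1: ttcagcgcttGCGCATGCGaggaggttccg
DELE1: ggctcccttctaATTGGccagctcagagct
EIF2AK3: cagcggccgcagCCAATgagagagcaaacg

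The 4 motifs were searched on both strands of 27305 promoters of this length. The interferon-stimulated response element core was present in 8.29% of them and in 1 of the 6 member promoters, and the NRF1 core in 2.1% and likewise 1 of 6. CCAAT, which overlaps no other motif searched, was present in 35.7% and in 3 of 6 (DELE1, EIF2AK2 and EIF2AK3). TGATGNAAT, the element bound by C/EBP-ATF dimers such as those with ATF4, was present in 1.02% and in 0 of the 6 windows. A match describes letters only.

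Assigned counts per library ran from 5983066 to 11707612, and 3 counts, the limit that a count of 0 allows, are 2.56e-05% to 5.01e-05% of a library's counts. Such limits cover counting error only, and PCR copies were not told apart. The summed level of 12 adrenergic neuroblastoma markers was 3080 to 4170 CPM (counts scaled to the library's size with its TMM factor), and TH, the enzyme of dopamine synthesis, was at 0.626 CPM and did not pass the filter. Markers of leukocytes summed to 3.17 to 4.74 CPM and of hepatocytes to 0.345 to 0.938 CPM, those of epithelium to 158 to 201 CPM (mostly EPCAM) and mesenchymal ones to 130 to 155 CPM (mostly PDGFRB). The 37 genes encoded by mitochondrial DNA held 0.144% and 0.149% of the counts in the untreated libraries and 0.0275% to 0.0372% in the treated ones. Fold changes below are scaled by TMM factors, and scaling without those genes changed neither a direction nor a call among the members.

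OMA1, the protease that opens the relay, could not be measured from these counts. The gene (ENSG00000162600.12) spans GRCh38 chromosome 1, 58415384 to 58546802, on the minus strand, and lies almost whole inside DAB1, a much longer gene on the same strand that encodes an adaptor of Reelin signalling. Only 68 of its 131419 bases, 0.0517%, are not shared with another annotated gene. OMA1 had 0 counts in all 6 libraries. DAB1 had 101 and 86.2 CPM in untreated cells, 106 and 84.7 CPM after 0.5 h, and 104 and 104 CPM after 24 h. Its log2 fold change was 0.026 ± 0.129 (SE) at 0.5 h (adjusted p = 1) and 0.15 ± 0.13 at 24 h (adjusted p = 0.822), neither past the threshold of 0.05. Nearly all of OMA1's bases are shared with DAB1, and 97.9% of protein-coding genes with 0 unshared bases were at 0 in every library. Reads on shared bases thus appear to have been counted for neither gene. DAB1's count would then come from the 88.6% of its span that is unshared, and it is no substitute for a count of OMA1.

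The zero of OMA1 is shared by most genes with as little sequence of their own. Among protein-coding genes with no more than 200 unshared bases 1899 of 2163 (87.8%) had 0 counts in all 6 libraries, against 2.74% of genes with 1000 or more. Genes that lie whole inside another gene show the same. Of 531 protein-coding genes inside a gene of the same strand, 514 (96.8%) had 0 counts in all 6 libraries. The share was as high for genes nested on the opposite strand, with 455 of 459 (99.1%) where the nested gene touched the host's exons and 570 of 571 (99.8%) where it lay within an intron. By contrast 502 of 7149 genes with no overlap (7.02%) and 527 of 11190 that overlapped another gene in part (4.71%) were at 0. A count of 0 in a gene that shares nearly all its bases is therefore no measure of absent transcription here. The strand setting of the counting is not stated. Of 1035 protein-coding genes with 0 unshared bases over both strands but at least 1000 against the same strand alone, 1028 (99.3%) were at 0. Counting kept apart by strand would have left such genes bases of their own, so the counting appears to have ignored strand. The other members' counts may therefore include reads of the opposite strand on their unshared bases.

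**Figure D1:**
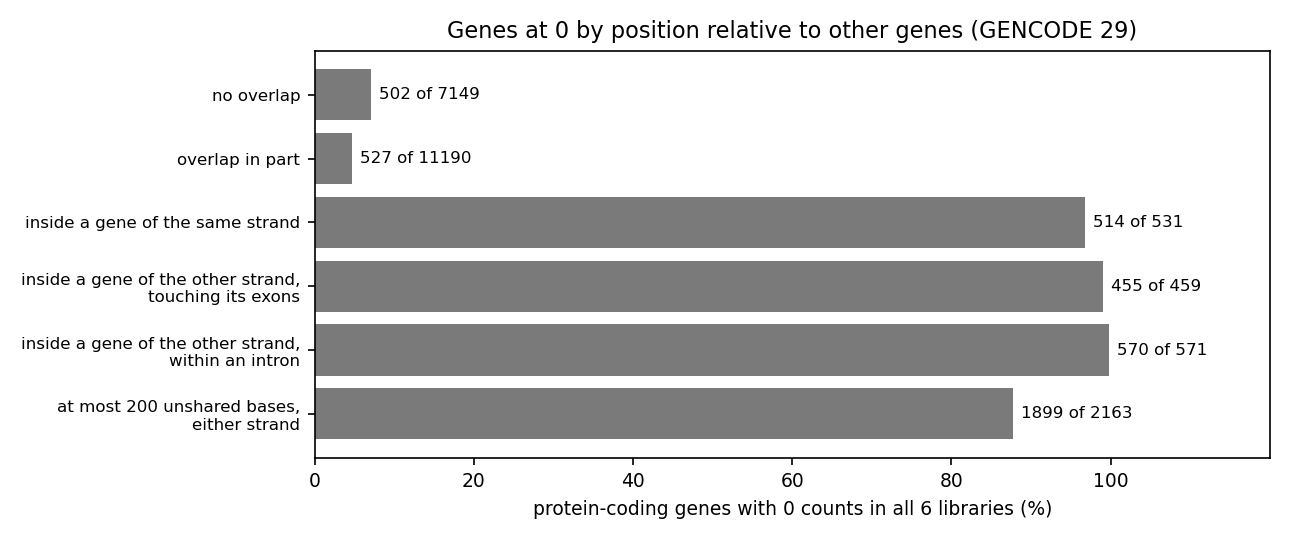
Bars give the share of protein-coding genes with 0 counts in all 6 libraries (percent, x axis), by how the gene lies relative to other annotated genes (y axis), with the counts beside them. The 3 classes of nested genes are at 96.8% to 99.8%, and genes with no overlap or overlap in part are at 7.02% and 4.71%. The last bar, genes with no more than 200 unshared bases (87.8%), cuts across the other classes. OMA1, with 68 unshared bases, is counted in it and also under overlap in part.

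DELE1, which carries the signal out of the mitochondrion, had the largest difference of the 6 measured genes, being lower at 24 h. The gene (ENSG00000081791.9) spans chromosome 5, 141923808 to 141942047, on the plus strand, and shares no base of its 18240 with another gene. Its level was 74.9 and 69.1 CPM in untreated cells, 68.2 and 70.6 CPM after 0.5 h, and 55.2 and 57.1 CPM after 24 h. Both 24 h libraries lay below all 4 others, and the 0.5 h libraries overlapped the untreated ones. At 24 h the log2 fold change against untreated cells was -0.36 ± 0.10 (SE, 95% interval -0.58 to -0.13), a level 0.78 of the untreated one. This did not pass edgeR's quasi-likelihood test over all genes (adjusted p = 0.528). The size was -0.43 without untreated replicate 2 and -0.30 without untreated replicate 1.

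The call for DELE1 rested on whether the replicate number was used. Within number 1 the 24 h library was lower than the untreated one by a log2 difference of -0.44, and within number 2 by -0.27. With the number as a block in the edgeR fit the fold change stayed at -0.36 ± 0.093 and the adjusted p was 0.0351, so that DELE1 passed, as did 2.96% of all tested genes. The labels do not say what the number stands for. At 0.5 h DELE1 was at -0.053 ± 0.097 (95% interval -0.27 to 0.17, adjusted p = 1), which leaves room for a level between 0.828 and 1.12 of the untreated one.

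**Figure D2:**
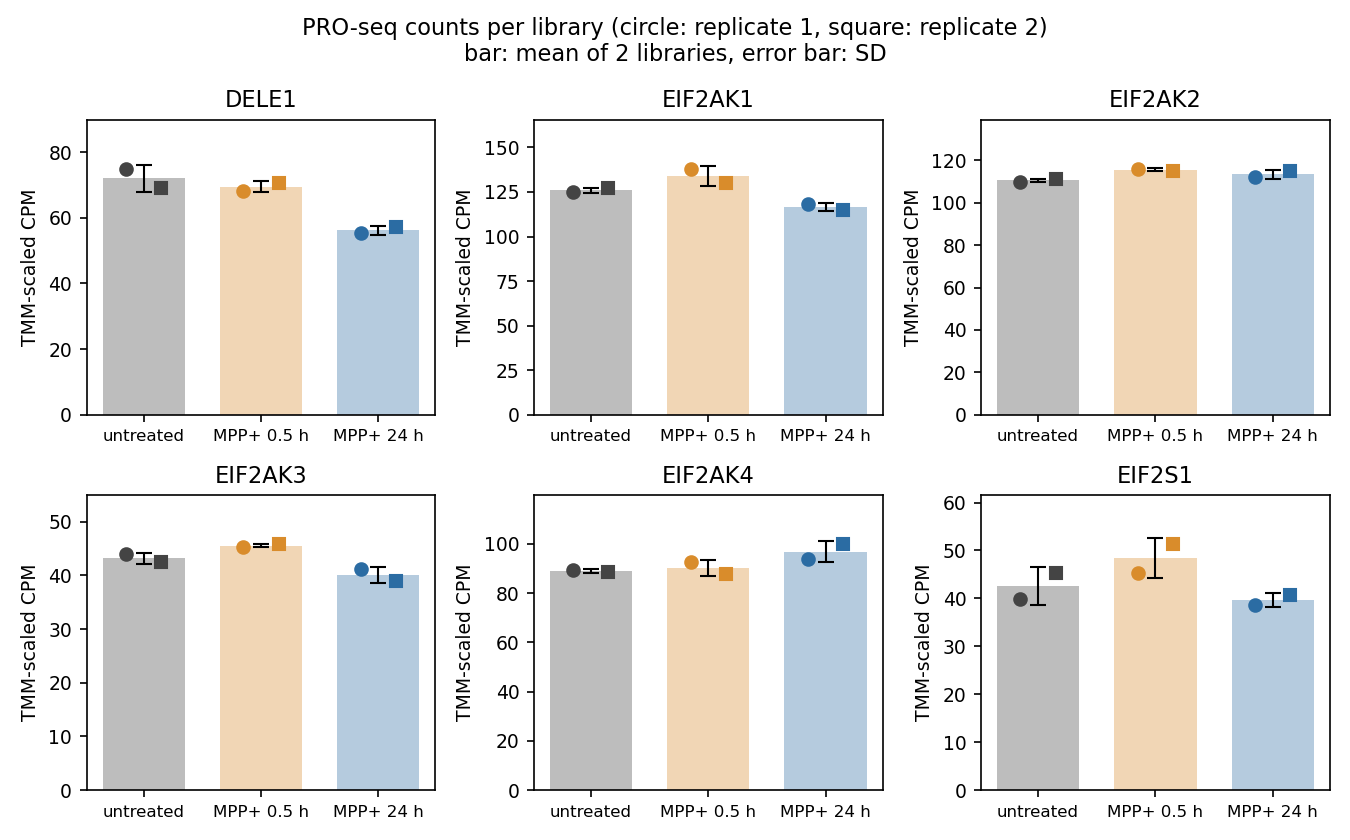
Level in each library (CPM, y axis from 0) of the 6 member genes with counts, by group (untreated, MPP+ over 0.5 h, MPP+ over 24 h), with bars for the mean of 2 libraries, error bars for the SD, circles for replicate 1 and squares for replicate 2. DELE1 is at 55.2 and 57.1 CPM after 24 h, below its 4 other libraries.

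EIF2AK1 encodes HRI, the kinase that DELE1 activates and that was first known as the heme-regulated inhibitor of red cell precursors. Its gene (ENSG00000086232.13) lies at chromosome 7, 6022244 to 6059230, on the minus strand, and 81% of its span is unshared. EIF2AK1 was at 125 and 127 CPM in untreated cells, 138 and 130 CPM after 0.5 h, and 118 and 115 CPM after 24 h. The groups did not overlap, with 0.5 h above and 24 h below untreated cells, but neither difference passed the test. The log2 fold change was 0.095 ± 0.096 at 0.5 h (adjusted p = 1) and -0.11 ± 0.10 at 24 h (adjusted p = 0.827). The 95% intervals hold levels of 0.919 to 1.24 and of 0.796 to 1.08 of the untreated one.

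EIF2AK2 encodes PKR, the kinase activated by double-stranded RNA, including that of mitochondrial origin. The gene (ENSG00000055332.19; chromosome 2, 37099210 to 37157065, minus strand, 98.6% unshared) had the narrowest range of the 6. It was at 110 and 111 CPM in untreated cells, 116 and 115 CPM after 0.5 h, and 112 and 115 CPM after 24 h. Treated libraries were above untreated ones at both times by small amounts. The log2 fold change was 0.065 ± 0.093 at 0.5 h (adjusted p = 1) and 0.036 ± 0.094 at 24 h (adjusted p = 0.953), with 24 h intervals reaching from 0.886 to 1.19 of the untreated level.

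EIF2AK3 encodes PERK, the kinase in the membrane of the endoplasmic reticulum that answers to unfolded proteins. Of its span (ENSG00000172071.14; chromosome 2, 88556741 to 88627576, minus strand) 73.3% is unshared, because 2 antisense genes overlap it in part. Levels were 43.9 and 42.5 CPM in untreated cells, 45.3 and 45.8 CPM after 0.5 h, and 41.1 and 39 CPM after 24 h. As for EIF2AK1, the 0.5 h libraries were the highest pair and the 24 h libraries the lowest. The log2 fold change was 0.077 ± 0.108 at 0.5 h (adjusted p = 1) and -0.11 ± 0.11 at 24 h (adjusted p = 0.859).

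EIF2AK4 encodes GCN2, which senses uncharged tRNA and stalled ribosomes when amino acids run short. The gene (ENSG00000128829.12) spans chromosome 15, 39934146 to 40035591, on the plus strand, and 99.7% of it is unshared. It had 89.5 and 88.4 CPM in untreated cells, 92.5 and 87.9 CPM after 0.5 h, and 93.8 and 99.8 CPM after 24 h. Both 24 h libraries lay above the 4 others, and the 0.5 h libraries enclosed the untreated ones. The log2 fold change was 0.021 ± 0.095 at 0.5 h (adjusted p = 1) and 0.12 ± 0.10 at 24 h (adjusted p = 0.798), an interval of 0.937 to 1.26 of the untreated level. The 0.5 h direction was not stable, with -0.015 without 0.5 h replicate 1.

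EIF2S1, the substrate (ENSG00000134001.15; chromosome 14, 67359997 to 67386516, plus strand, 99% unshared), was at 39.8 and 45.4 CPM in untreated cells. It was at 45.4 and 51.3 CPM after 0.5 h and at 38.6 and 40.7 CPM after 24 h. The 0.5 h libraries were not below either untreated library, the nearest pair being 45.4 CPM in both, and the 24 h libraries overlapped the untreated ones. The log2 fold change was 0.18 ± 0.12 at 0.5 h (adjusted p = 1) and -0.11 ± 0.12 at 24 h (adjusted p = 0.879). Within replicate number 1 the 0.5 h library was above the untreated one by a log2 difference of 0.19, and within number 2 by 0.176. At 24 h these differences were -0.045 and -0.155. Replicate 2 was the higher library in each group, so leaving out 1 library of a compared pair also unbalances the replicate numbers. The 0.5 h value was 0.088 without 0.5 h replicate 2, 0.089 without untreated replicate 1, 0.27 without untreated replicate 2 and 0.26 without 0.5 h replicate 1. The 24 h value was -0.018 without untreated replicate 2, -0.066 without 24 h replicate 1 and -0.20 without untreated replicate 1.

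Across the members, 0 of the 6 measured genes passed at 0.5 h, where 0.0735% of all tested genes did, and 0 of 6 passed at 24 h, where 0.0692% did. DESeq2 also called 0 of 6 at each time. At an unadjusted p under 0.05 there were 0 at 0.5 h, against 2.46% of all genes, and 1 at 24 h (DELE1), against 8.1%. Libraries of the groups did not overlap for 4 of 6 at 0.5 h, all higher, where 12.9% of all genes were higher and 14.4% lower without overlap. At 24 h this held for 3 of 6 lower and 2 of 6 higher, against 18.5% and 18.8%. The members' median log2 fold change was 0.071 at 0.5 h and -0.11 at 24 h, beside medians of 0.008 and 0.002 over all tested genes.

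Between the 2 treated groups, several members were lower at 24 h than at 0.5 h, and none passed. DELE1 had a log2 difference of -0.31 ± 0.099 (adjusted p = 0.754) and EIF2S1 of -0.28 ± 0.12 (adjusted p = 0.768). These are 2 of 6 at an unadjusted p under 0.05, where 6.42% of all genes were. EIF2AK1 was at -0.21 ± 0.096 (adjusted p = 0.769) and EIF2AK3 at -0.18 ± 0.11 (adjusted p = 0.793), with no overlap of their libraries. EIF2AK2 was at -0.028 ± 0.093, its libraries overlapping, and EIF2AK4 at 0.10 ± 0.095, higher without overlap. In all 4 of 6 were lower and 1 of 6 higher without overlap, against 19% and 19.4% of all genes. Over all genes 0% passed in this comparison, with edgeR and with DESeq2, both without the replicate block, and 1486 had an unadjusted p under 0.05 in edgeR. With the block 1.78% passed in edgeR, and without the filter on low counts 73 genes did. This comparison shares its 24 h libraries with the 24 h comparison and its 0.5 h libraries with the 0.5 h one.

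**Figure D3:**
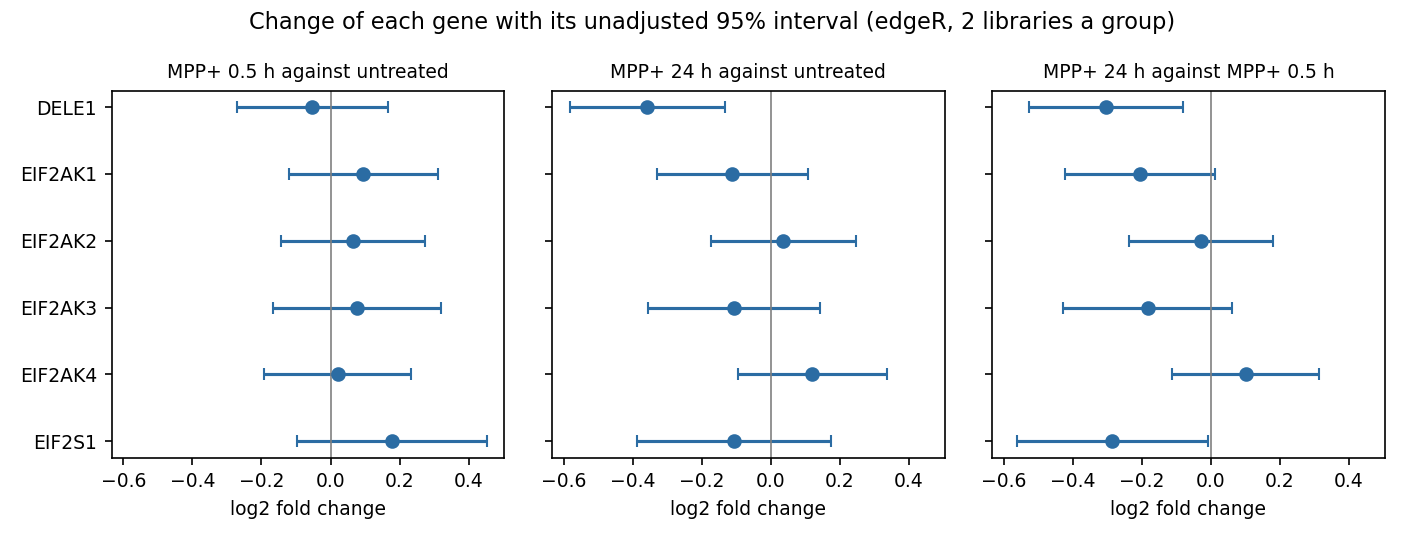
Log2 fold change (x axis) with its 95% interval for each of the 6 measured members in the 3 comparisons, from 1 edgeR fit on 6 libraries. The DELE1 intervals against untreated cells at 24 h (-0.58 to -0.13) and against 0.5 h lie below 0, as does that of EIF2S1 for 24 h against 0.5 h, and the others include 0.

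Levels can be set side by side only per length, and the order depends on which length is used. The unshared part of each gene's span is given first, since genes within introns of another gene were also at 0. Across 5143 protein-coding genes without overlap, counts followed exon length (Spearman rho 0.358) more closely than span (0.247). This is a description across genes and does not show which bases were counted, so exon length is given only as a second scale. Per unshared span EIF2AK1 was the highest, with 4.18 CPM per kilobase (library range 3.82 to 4.62), above DELE1 at 3.61 (3.03 to 4.11) in every library. EIF2AK2 followed at 1.98 (1.92 to 2.04) and EIF2S1 at 1.66 (1.47 to 1.95), their ranges overlapping at the edge. EIF2AK4 at 0.91 (0.87 to 0.987) and EIF2AK3 at 0.826 (0.75 to 0.881) overlapped, so the order of those neighbours is not set beyond their spread. With the full span, which includes shared bases, DELE1 came first, at 3.61, and EIF2AK1 at 3.39. Per kilobase of exon EIF2AK1 was again first, at 22.6 CPM, and DELE1 at 10.9 was close to EIF2AK2 at 10.5. The last 3 were close on that scale, at 7.9 for EIF2AK3, 7.71 for EIF2S1 and 7.69 for EIF2AK4. OMA1 has no level on any of these scales.

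**Figure D4:**
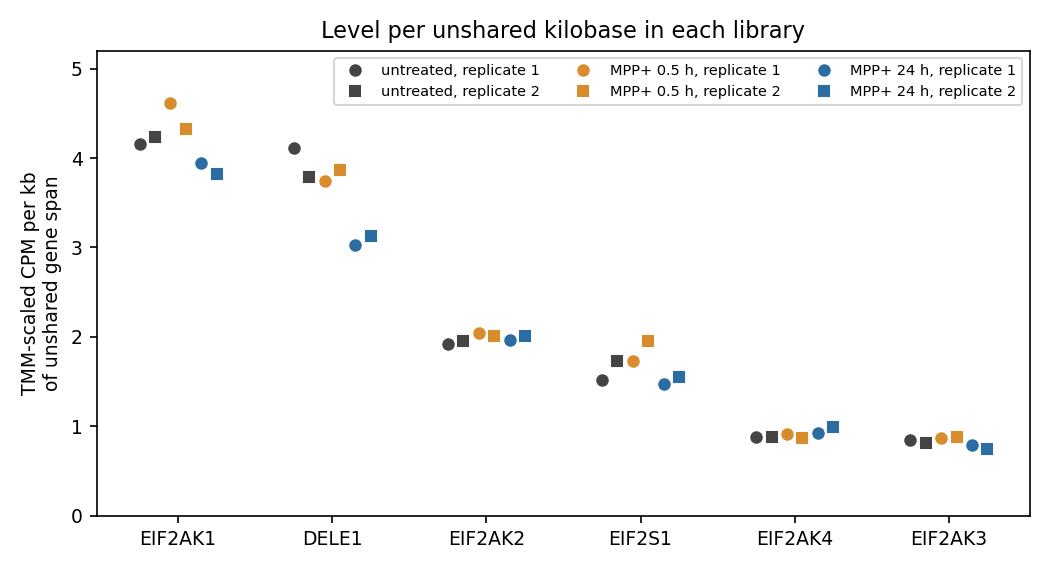
Level per kilobase of unshared gene span (CPM per kilobase, y axis) of the 6 measured members (x axis), a point for each library, coloured by group. EIF2AK1 (mean 4.18) and DELE1 (3.61) lie above the other 4 genes, and EIF2AK3 and EIF2AK4 overlap.

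The genes around the relay were read from 6 lists of background pathway genes. In each list 0 genes passed in any of the 3 comparisons, with 0.0735%, 0.0692% and 0% of all tested genes passing. Without the filter on low counts 1 target gene passed at 24 h against untreated cells, STC2. For 24 h against 0.5 h 1 passed, PHGDH, at a log2 difference of -0.50 (adjusted p = 0.0229). PHGDH had 296 and 165 CPM after 0.5 h and 176 and 153 CPM after 24 h, so its libraries overlapped and 0.5 h replicate 1 set most of the difference. With the filter it was at -0.49 ± 0.27 (adjusted p = 0.784). At an unadjusted p under 0.05 there was 1 gene of the 6 lists at 0.5 h, SLC38A2, where 2.46% of all genes were. At 24 h there were 2 of 12 on the mitochondrial side, 1 of 13 regulators, 1 of 9 genes of eIF2 and eIF2B, 2 of 4 phosphatases, 0 of 6 transcription factors and 6 of 22 targets, where 8.1% of all genes were. The lists are described by their counts and medians, and the medians over all genes were 0.008, 0.002 and 0.003 for 0.5 h, 24 h and the treated groups compared with each other. Same-numbered libraries deviated together, so leaving out 1 library of the groups compared, as below, also unbalances the replicate numbers.

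On the mitochondrial side, the list held proteases, prohibitins and chaperones that share the inner membrane or matrix with OMA1. Of 13 genes 12 were tested, and PHB1, nested in another gene, was at 0. The median was -0.017 at 0.5 h, with 5 above and 7 below 0, and -0.15 at 24 h, with 4 above and 8 below. Leaving out 1 library moved the first between -0.073 (without 0.5 h replicate 2) and 0.026 (without untreated replicate 1), and the second to -0.063 without 24 h replicate 2. LONP1, the matrix protease, had 257 and 205 CPM in untreated cells, 207 and 211 after 0.5 h, and 181 and 180 after 24 h. Its 24 h libraries were below all others, at a log2 fold change of -0.35 ± 0.12 (adjusted p = 0.578). CLPP, another matrix protease, was at -0.51 ± 0.22 (adjusted p = 0.605) and PINK1, the kinase that marks depolarised mitochondria, at -0.49 ± 0.23 (adjusted p = 0.634). At 0.5 h CLPP was at -0.36 ± 0.21, PINK1 at -0.31 ± 0.22 and LONP1 at -0.14 ± 0.12.

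Regulators of the kinases, such as chaperones that hold HRI, PERK or PKR and cofactors of GCN2, were all tested, 13 of 13. The median was 0.093 at 0.5 h, with 10 above and 3 below 0, and 0.056 at 24 h, with 8 above and 5 below. The 0.5 h median stayed above 0 whichever library was left out (0.044 to 0.105). The 24 h median was -0.043 without 24 h replicate 1, -0.018 without 24 h replicate 2 and -0.039 without untreated replicate 1. HSPA5, the chaperone BiP that keeps PERK inactive, had 84.7 and 100 CPM in untreated cells, 146 and 102 after 0.5 h, and 133 and 89.8 after 24 h. Its libraries of 0.5 h were above the untreated ones, mostly through 1 of them, at 0.43 ± 0.21 (adjusted p = 1). PTGES3, a cochaperone of HSP90, was at 0.19 ± 0.11 and IMPACT, an inhibitor of GCN2, at 0.12 ± 0.11 at that time (adjusted p = 1 for both). At 24 h IMPACT was lower in both libraries, at -0.27 ± 0.12 (adjusted p = 0.607), as was PRKRA (PACT), a protein activator of PKR, at -0.27 ± 0.14 (adjusted p = 0.663). HSPA8, the constitutive cytosolic HSP70, was at 0.29 ± 0.15 with overlapping libraries (adjusted p = 0.674).

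The other subunits of eIF2, its exchange factor eIF2B and their helpers were tested in full, 9 of 9. Their median was -0.007 at 0.5 h, with 4 above and 5 below 0, and -0.098 at 24 h, with 1 above and 8 below. Without 1 library the first ran from -0.025 (0.5 h replicate 2) to 0.028 (0.5 h replicate 1), and the second from -0.151 (untreated replicate 2) to -0.086 (24 h replicate 2). At 0.5 h the smallest p-values were those of EIF2B2 and EIF2B4, subunits of eIF2B, at 0.16 ± 0.11 and 0.14 ± 0.14, and EIF2S3, the gamma subunit of eIF2, at -0.082 ± 0.125 (adjusted p = 1 for each). EIF2S2, the beta subunit, had 63.2 and 51 CPM in untreated cells, 63.9 and 49.2 after 0.5 h, and 41.9 and 42.4 after 24 h. The 24 h libraries were below the 4 others, at -0.44 ± 0.15 (adjusted p = 0.578). CDC123, an assembly factor of eIF2, was at -0.15 ± 0.099 (adjusted p = 0.744) and EIF5, its GTPase-activating partner, at -0.31 ± 0.22 (adjusted p = 0.763).

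Among the phosphatases of eIF2alpha 4 of 5 were tested, the nested PPP1R15B being at 0, and 2 catalytic subunits were lower at 24 h: PPP1CC at -0.34 ± 0.10 (adjusted p = 0.537) and PPP1CB at -0.37 ± 0.13 (adjusted p = 0.574). PPP1R15A (GADD34), the stress-induced targeting subunit, was at 0.24 ± 0.19 after 0.5 h and 0.33 ± 0.19 after 24 h. PPP1CC was at -0.070 ± 0.097 and PPP1CA, the third catalytic subunit, at 0.10 ± 0.14 after 0.5 h. The phosphatase median was 0.051 at 0.5 h, between -0.055 (without untreated replicate 1) and 0.125 (without untreated replicate 2) leaving out 1 library. It was -0.21 at 24 h, or -0.10 without untreated replicate 2.

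Downstream, 6 of 8 transcription factors of the response were tested, and ATF5, which is nested in another gene, and NUPR1, which is not, were at 0 in every library. ATF4 had 143 and 118 CPM in untreated cells, 171 and 110 after 0.5 h, and 154 and 112 after 24 h, the groups overlapping. Its log2 fold change was 0.11 ± 0.21 at 0.5 h and 0.033 ± 0.215 at 24 h (adjusted p = 1 and 0.984). DDIT3 (CHOP), the factor of prolonged stress, had 12.6 and 14.3 CPM in untreated cells, 20.4 and 11.4 after 0.5 h and 18 and 10.7 after 24 h, at 0.25 ± 0.31 and 0.11 ± 0.32. In both genes replicate 1 of the treated groups was the higher library. ATF3, a repressor induced by stress, was at -0.075 ± 0.183 at 0.5 h. At 24 h the smallest p-values were those of CEBPB at -0.30 ± 0.22, CEBPG at -0.18 ± 0.16, both partners of ATF4, and TRIB3, a pseudokinase that restrains it, at -0.11 ± 0.14 (adjusted p = 0.771, 0.819 and 0.897). The list's median was 0.03 at 0.5 h, and 0.028 with the replicate number as a block. Leaving out 1 library, the 0.5 h median was -0.22 without 0.5 h replicate 1 and 0.18 without 0.5 h replicate 2. It was -0.036 at 24 h, or -0.195 without 24 h replicate 1 and -0.085 without untreated replicate 2.

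Of 24 target genes of the response, which serve amino acid supply, redox balance and secretion, 22 were tested. ASNS was at 0, nested in a gene of its strand, and FGF21 had too few counts. Their median was 0.057 at 0.5 h, with 14 above and 8 below 0, and -0.046 at 24 h, with 8 above and 14 below. Leaving out 1 library, the first ran from -0.10 (without 0.5 h replicate 1) to 0.18 (without untreated replicate 1), and the second from -0.21 (without untreated replicate 2) to 0.034 (without untreated replicate 1). With the replicate number as a block the 0.5 h median was 0.06. At 0.5 h SLC38A2 was at -0.28 ± 0.11, SHMT2, of mitochondrial serine metabolism, at -0.24 ± 0.18, and CHAC1, which degrades glutathione, at 0.18 ± 0.17 (adjusted p = 1 for each). The genes with the smallest p at 24 h lay in both directions. SLC38A2, an amino acid transporter, was at -0.41 ± 0.11 (adjusted p = 0.498) and GPT2, a mitochondrial transaminase, at -0.38 ± 0.12 (adjusted p = 0.557). STC2, a secreted stanniocalcin, had 87.2 and 69.3 CPM in untreated cells and 114 and 109 after 24 h, at 0.51 ± 0.16 (adjusted p = 0.544). Without the filter on low counts its value was 0.52 ± 0.13 with an adjusted p of 0.0116.

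The lists held 12, 13, 9, 4, 6 and 22 tested genes, in the order above. With the replicate number as a block, 0 list genes passed at 0.5 h, beside 0.246% of all tested genes. At 24 h against untreated cells 10 did, beside 2.96% of all tested genes. Those lower were LONP1, EIF2S2, EIF5, PPP1CB, PPP1CC, SLC38A2 and GPT2, and those higher were the stress-response targets DDIT4, GDF15 and STC2. GDF15, a circulating marker of mitochondrial disease, had a blocked log2 fold change of 0.70 (adjusted p = 0.0384). Its level was 7.36 and 15.8 CPM in untreated replicates 1 and 2, and 17.3 and 20 CPM after 24 h. Much of its change thus rests on the low untreated replicate 1. In the edgeR fit without the block GDF15 was at 0.66 ± 0.31 (adjusted p = 0.635). Between the treated groups 7 list genes passed with the block, beside 1.78% of all. These were IMPACT, EIF2S2, EIF5, PPP1CB, PHGDH and SLC3A2, lower at 24 h, and STC2, higher. The genes of this paragraph are named because they passed with the block.

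**Figure D5:**
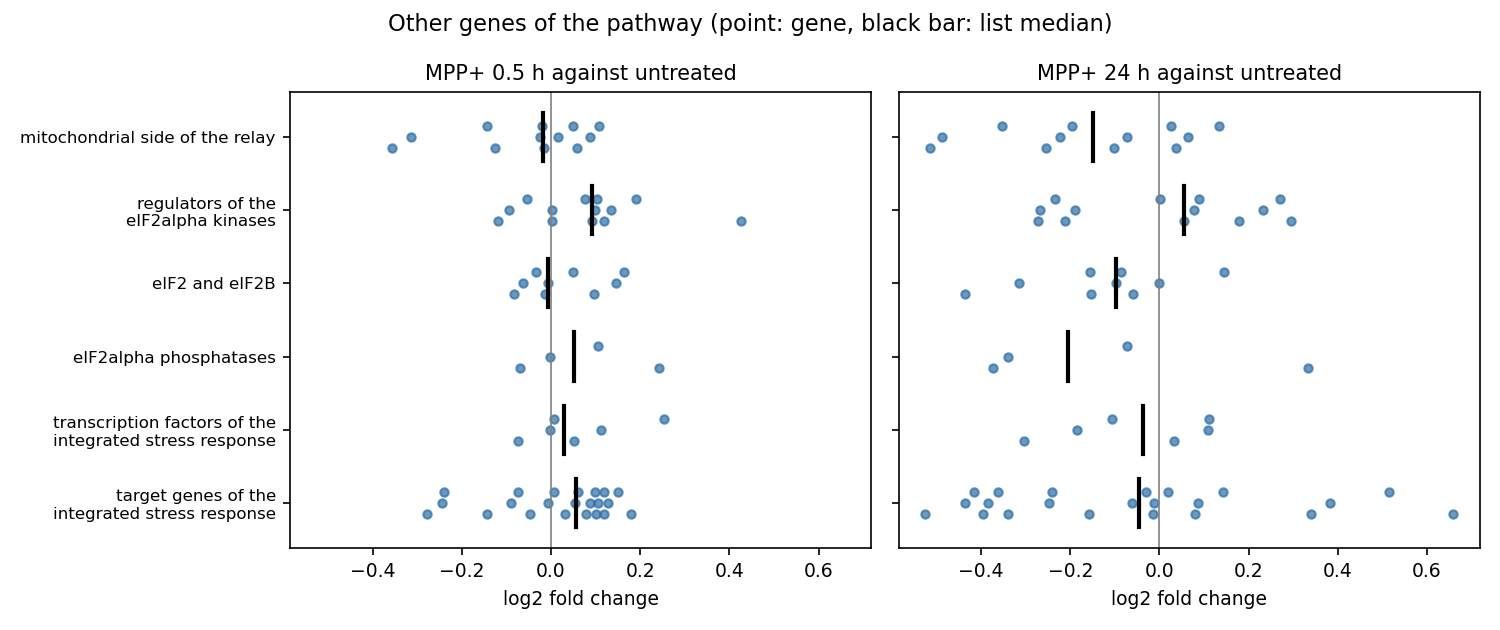
Log2 fold change against untreated cells (x axis) of each tested gene in the 6 pathway lists (y axis) at 0.5 h and 24 h, with the list's median as a black bar. Medians run from -0.017 to 0.093 at 0.5 h and from -0.21 to 0.056 at 24 h, and 0 genes passed the test with the filter on low counts and no replicate block.

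The authors' deposited tables of differential genes list 17 genes at 0.5 h and 24 at 24 h, and 0 of the 7 members or of the list genes is among them.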

How the data were processed

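PRO-seq libraries of 3 groups of 2 were compared. The submitters' processing notes name build hg38, featureCounts 2.0.1, Bowtie2 2.4.2, cutadapt 1.16.5, SAMtools 1.13 and DESeq2 2.11.40.6. What strand, feature type and annotation release the counting used is not given in the sources used here. Raw counts per gene for each library were deposited by the authors, with tables of differential genes that hold log2 fold changes.

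Identifiers were matched to a gene name table (60437) and GENCODE 29 (243), and 6371 kept no symbol. Counts were filtered by filterByExpr, scaled by TMM and fitted in edgeR 4.0.16 (R 4.3.3, limma 3.58.1) with 1 coefficient per group on all 6 libraries (3 residual degrees of freedom, common biological coefficient of variation 0.113), with two-sided quasi-likelihood tests and Benjamini-Hochberg adjustment over 23133 genes at 0.05. The method was tested on simulated counts with larger changes than those of the members and no shared deviation of same-numbered libraries. That test does not bear on differences as small as the members'. Alternatives per comparison numbered 14, among them DESeq2 1.42.0, other scalings and filters, a replicate block and leaving out each library. Same-numbered libraries deviated together from their group means (correlation across 16651 genes 0.504, 0.488 and 0.526).

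Members and lists were chosen with earlier results of these data known. Named genes are all members, the 3 genes of each list with the smallest p in each comparison with untreated cells, and any that passed. 0 columns belonged to no sample.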

Additional observations from a re-analysis of the deposited data

How the results depend on the processing

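Of 252 member fold changes recomputed under 14 alternatives, 247 kept their direction and their side of the threshold. With a replicate block DELE1 at 24 h against untreated cells passed (-0.36, adjusted p = 0.0351), so that the number of members called was 1, and the block changed no other member's call. The adjusted p of that result was 0.0351 to 1 over the alternatives, 1 being DESeq2's. Values that turned sign were EIF2AK4 at 0.5 h (-0.001 with upper-quartile normalization, and -0.015 to 0.053 leaving out 1 library each), DELE1 at 0.5 h (-0.119 to 0.006 leaving out 1 library each) and EIF2AK2 at 24 h against 0.5 h (0.006 with upper-quartile normalization). The cause was not tested. EIF2S1 ranged over all alternatives from 0.088 to 0.27 at 0.5 h and from -0.197 to -0.018 at 24 h, and EIF2AK1 from 0.049 to 0.136 at 0.5 h.

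Over all genes, the block gave 15 higher and 42 lower at 0.5 h, 301 higher and 384 lower at 24 h, and 116 higher and 296 lower at 24 h against 0.5 h. Without the filter these were 20 and 46, 130 and 115, and 29 and 44, and 1 target gene of the integrated stress response passed at 24 h (STC2) and 1 at 24 h against 0.5 h (PHGDH). DESeq2 called 13 higher at 24 h. Leaving out 1 library each, the lower calls were 9 to 19 at 0.5 h and 8 to 16 at 24 h, and the higher calls at 24 h were 0 to 1. Members' counts of 240 to 1572 per library carry a counting error of 2.52% to 6.45%, and 2 libraries a group limit what can be called.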

Other observations

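The genes whose levels followed each member most closely over the 6 libraries were found by Pearson correlation of log2 CPM among 16650 genes with a mean of at least 50 counts, as a description in libraries that share depth and treatment group. For DELE1 they were CYBC1 and STMP1 (both 0.997), and 127 genes were above 0.95. EIF2AK1 was matched by NFYB (0.997) and INSM2 (0.995), with 52 genes above 0.95. EIF2AK2 had ITPR2 (0.981) and LINC02056 (0.971), with 15 above 0.95. EIF2AK3 had ZNF33A (0.997) and UQCC2 (0.992), EIF2AK4 had STXBP5L (0.997) and MOV10L1 (0.996), and EIF2S1 had ENSG00000262898 (0.994) and DYNC1LI2-DT (0.993).

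Among the members themselves, the strongest pairs were picked from all pairs, as a description over 6 libraries that share treatment groups. EIF2AK3 and EIF2AK1 had a correlation of 0.895 and DELE1 and EIF2AK3 of 0.792. DELE1 and EIF2AK1 were at 0.691, and EIF2AK2 ran from -0.205 (with DELE1) to 0.481 (with EIF2S1). EIF2AK4 was opposite to DELE1 (-0.796) and to EIF2AK3 (-0.789).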
